A study of Mus musculus with 4 samples.

Results

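RIKEN clone genes are genes that still carried, in the annotation used here, the name of the full-length mouse cDNA clone by which they were first catalogued (symbols ending in Rik). In testes of 24-day-old Rfx2 mutant mice, 100 of the 1179 Rik symbols that passed a filter on low values were lower than in the control testes. They were chosen by that difference: the FPKM values (fragments mapped to a gene, scaled by transcript length and sequencing depth) were summed by symbol, a symbol needed at least 1 FPKM in at least 2 of the 4 samples, the mean of FPKM + 1 in the mutants had to be at most 0.5 of that in the controls, and both mutant values had to lie below both control values. The files held 22311 symbols, 1815 of them Rik symbols, and 12985 symbols passed the filter. By the same rule 2.86% of all tested symbols, 8.48% of the tested Rik symbols and 2.30% of the other tested symbols were chosen. Since the rule read the mutant and control values, the values of the 100 genes are a description and carry no test.

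The series held 4 whole-testis RNA-seq samples, 2 from mice labelled rfx2-/- (mutant 1 and 2) and 2 from mice labelled wild type (control 1 and 2), all male and all 24 days old. The labels give the strain as DBA, while the study's methods describe the sequenced controls as heterozygous mice on a mixed 129 and C57BL/6 background, so both descriptions stand here. In the mutant allele, which came from 1 targeted embryonic stem cell clone, a neomycin-resistance cassette replaces exons 6 and 7 of Rfx2, and the mutation is present in every cell of the mouse. In such bulk RNA, fewer cells of a type and less RNA per cell cannot be told apart.

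RFX2 belongs to the regulatory factor X family, transcription factors that bind the X-box, an imperfect inverted repeat found before many genes of cilia and flagella. The sperm flagellum is built around an axoneme, the microtubule scaffold that motile cilia also contain, with dynein arms, radial spokes and a central apparatus attached to it. The axoneme is assembled in round spermatids, the haploid cells that follow meiosis, and several of the RIKEN clone genes have since been renamed for axonemal proteins. In the RefSeq table used here 45 of the 100 genes had another current symbol, which is given in parentheses or after the clone name, and 55 kept the clone name.

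The promoter sequences were looked at first, because the rule did not use them. Of the 100 genes, 86 had an entry in the RefSeq promoter table (build GRCm38.p6, from 250 bases before to 50 bases after the transcription start). An X-box without mismatch, searched on both strands with a gap of 0 to 3 bases between its arms, lay in 19 of these 86 promoters (22.1%). The same motif was found in 1.75% of all 27025 genes of the table, in 2.51% of 10350 tested genes, and in 30 of 878 tested Rik symbols that were not among the 100 (3.42%). The following stretches show the X-box in capitals with 12 bases on either side, written on the strand of the gene. They are given for some of the genes furthest from the controls, for a pair of similar promoters, and for genes described below.
1700001C02Rik (Fam166c): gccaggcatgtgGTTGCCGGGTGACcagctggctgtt
1700021F07Rik: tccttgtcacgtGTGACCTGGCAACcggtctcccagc
4930403N07Rik (Ccdc175): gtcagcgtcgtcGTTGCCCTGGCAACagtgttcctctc
4930526D03Rik (Lkaaear1): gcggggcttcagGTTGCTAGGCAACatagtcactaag
1700109H08Rik: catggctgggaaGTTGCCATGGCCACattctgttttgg
1700018F24Rik: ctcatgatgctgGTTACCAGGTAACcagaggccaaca
4933421I07Rik: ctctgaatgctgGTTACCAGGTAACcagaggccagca
4931440F15Rik (Fem1al): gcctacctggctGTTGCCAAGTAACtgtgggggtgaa
1110017D15Rik: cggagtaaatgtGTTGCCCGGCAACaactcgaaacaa
4930521A18Rik (Dnaaf6): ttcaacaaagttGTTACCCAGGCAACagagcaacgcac

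The windows that hold these stretches are at chr5:30465827-30466126 (plus strand) for Fam166c, chr2:173522342-173522641 (plus) for 1700021F07Rik, chr12:72184980-72185279 (minus) for Ccdc175 and chr2:181698393-181698692 (minus) for Lkaaear1. That of 1700018F24Rik is at chr5:145042740-145043039 (plus), that of 4933421I07Rik at chr7:42448053-42448352 (minus), and that of Dnaaf6 at chr1:31222589-31222888 (plus), all in GRCm38.p6. The X-boxes of 1700018F24Rik and 4933421I07Rik were identical, although the genes are on chromosomes 5 and 7. When their promoter windows were shifted against each other without gaps, 174 bases matched at the best offset, which is 58.0% of the 300 bases of a window. The arms were 1 base apart in 13 of the 19 X-boxes and 2 bases apart in the other 6. Because the motif is nearly palindromic, 9 X-boxes were read on both strands, 6 on the opposite strand only and 4 on the strand of the gene only.

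Most X-boxes lay close to the transcription start. In 16 of 19 (84.2%) the motif began within 70 bases upstream of it, against 264 of 523 matches (50.5%) in all promoters of the table, and the median first base was 33 bases upstream. The most distant match began 164 bases upstream of Erich2 (4933404M02Rik), and that of 1700036G14Rik, a long non-coding RNA, spanned the start itself.

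**Figure D1:**
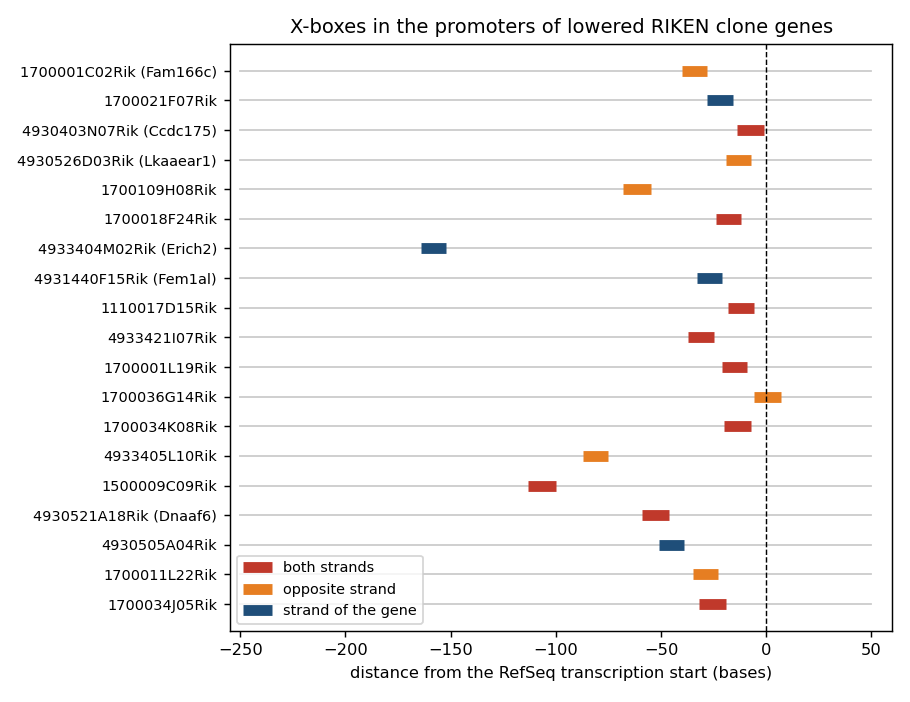
X-boxes without mismatch in the promoters of 19 lowered RIKEN clone genes. The horizontal axis gives the distance from the RefSeq transcription start in bases, each grey line is a promoter window from 250 bases before to 50 bases after the start, and colours give the strand on which the motif was read. Of the 19 motifs, 16 begin within 70 bases upstream of the start.

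X-boxes were found before genes with large and with small differences. The motif was present in 9 of 36 promoters (25.0%) of genes at -2 or below on the log2(FPKM + 1) scale and in 10 of 50 (20%) of genes above -2. The median log2 difference was -1.92 for members with an X-box and -1.72 for members with a promoter and no X-box. An X-box was found in 16 of 66 protein-coding members (24.2%) and in 3 of 20 members that do not code for protein (15%). The 30 other tested Rik symbols with an X-box had a median log2 difference of -0.14. Limma, a linear model fitted across all tested symbols on the log2(FPKM + 1) scale, called 0 of these 30 at an adjusted p of 0.05, and 6 were lower and 2 higher at an unadjusted p of 0.05. These 30 were what remained once the lowered symbols had been taken out. Of the 81 Rik symbols that limma called lower, 77 were members, so the lack of calls among the 30 follows largely from that choice. Over all tested genes, 33 of 260 with an X-box (12.7%) were called lower, against 225 of 10090 with a promoter and no X-box (2.23%).

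Members without a match included the gene furthest from the controls, Ms4a20, and the axonemal genes Cfap161 and Cfap157. That says only that the letters are not in this window. With 1 mismatch allowed, 41 of 86 member promoters (47.7%) held the motif, as did 12.7% of all promoters. In the mm9 genome, the build of the files, 86 members had an annotated position. Of these, 17 (19.8%) held an exact X-box in the stretch reaching 1000 bases to either side of the annotated start. The shares were 6.54% of 1040 tested Rik symbols and 4.61% of 12645 tested genes. These 86 are not the same genes as the 86 with a RefSeq promoter: 1700034K08Rik and 1700036G14Rik, with an X-box there, had no mm9 position.

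The 100 genes spanned a wide range of levels and differences. Their log2 differences ran from -5.91 to -1.01 with a median of -1.84, while the median was 0.03 over all genes tested and -0.03 over the tested Rik symbols. A total of 10 genes lay at -4 or below, 42 at -2 or below and 58 above -2. Mean control levels ran from 1.27 to 385 FPKM with a median of 19.4 FPKM, compared with 10.7 FPKM for all tested Rik symbols, and 66 genes reached a mean of 10 FPKM in the controls. The mean mutant level had a median of 2.60 FPKM. Both mutants were under 1 FPKM for 32 genes, which therefore passed the filter only through the controls and had to differ. Summed over the 100 genes, the level was 739 and 1178 FPKM in the mutants and 4050 and 3320 FPKM in the controls.

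**Figure D2:**
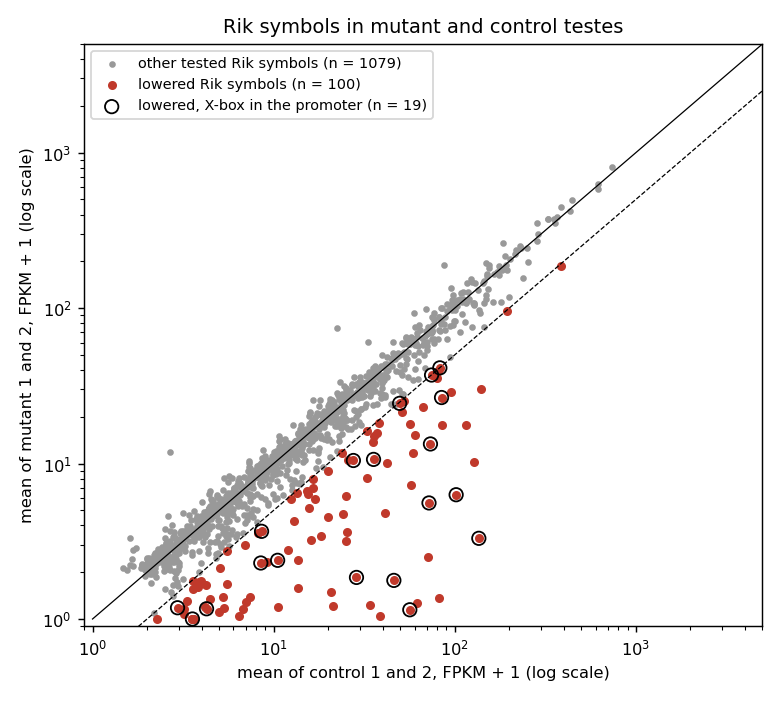
Mean FPKM + 1 of the 2 mutant samples against that of the 2 control samples for the 1179 tested Rik symbols, both on log axes. Red points are the 100 lowered genes, open circles mark the 19 with an X-box in the promoter, the solid line marks equal levels and the dashed line the 2-fold limit of the rule, so that all red points lie on or below it by construction.

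The genes furthest from the controls were almost silent in both mutants. 1700017D01Rik, now Ms4a20 (mm9 chr19:11171306-11205368, minus strand), belongs to the MS4A family of membrane proteins and was at 0.301 and 0.431 FPKM in the mutants and at 83.8 and 78.2 FPKM in the controls. The confidence bounds deposited with these values were 0.1 to 0.501 and 0.171 to 0.690 FPKM in the mutants and 80.4 to 87.2 and 74.9 to 81.4 FPKM in the controls. Its log2 difference was -5.91. Fam166c (1700001C02Rik, mm9 chr5:30768420-30786461, plus strand), whose X-box is shown above, was at 0.0648 and 0.228 FPKM in the mutants and 56.2 and 54.7 FPKM in the controls, a log2 difference of -5.63. For both genes the groups were far apart, and for Fam166c the mutant values, both under 1 FPKM, differed 3.52 times.

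Some of the lowest members have no name beyond their clone. 1700024G13Rik (mm9 chr14:33189688-33201559, minus strand) had 0.334 and 0.196 FPKM in the mutants and 71.9 and 49.7 FPKM in the controls, and 1700012P22Rik (mm9 chr4:144008092-144028675, minus strand) had 0.0430 and 0.0504 FPKM against 43.9 and 31.9 FPKM. 1700021F07Rik, with an X-box that begins 28 bases upstream, was at 0.903 and 3.70 FPKM in the mutants and at 157 and 113 FPKM in the controls, so that mutant 2 held 4.10 times the level of mutant 1 and both still lay far below the controls. Their log2 differences were -5.59, -5.20 and -5.49. 1700109H08Rik, 1700018F24Rik and 1700012B09Rik were at -3.96, -3.70 and -3.63. The last of these kept 10.2 and 8.34 FPKM in the mutants against 138 and 114 FPKM in the controls, a level in the mutants that was still above the control level of many other members.

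**Figure D3:**
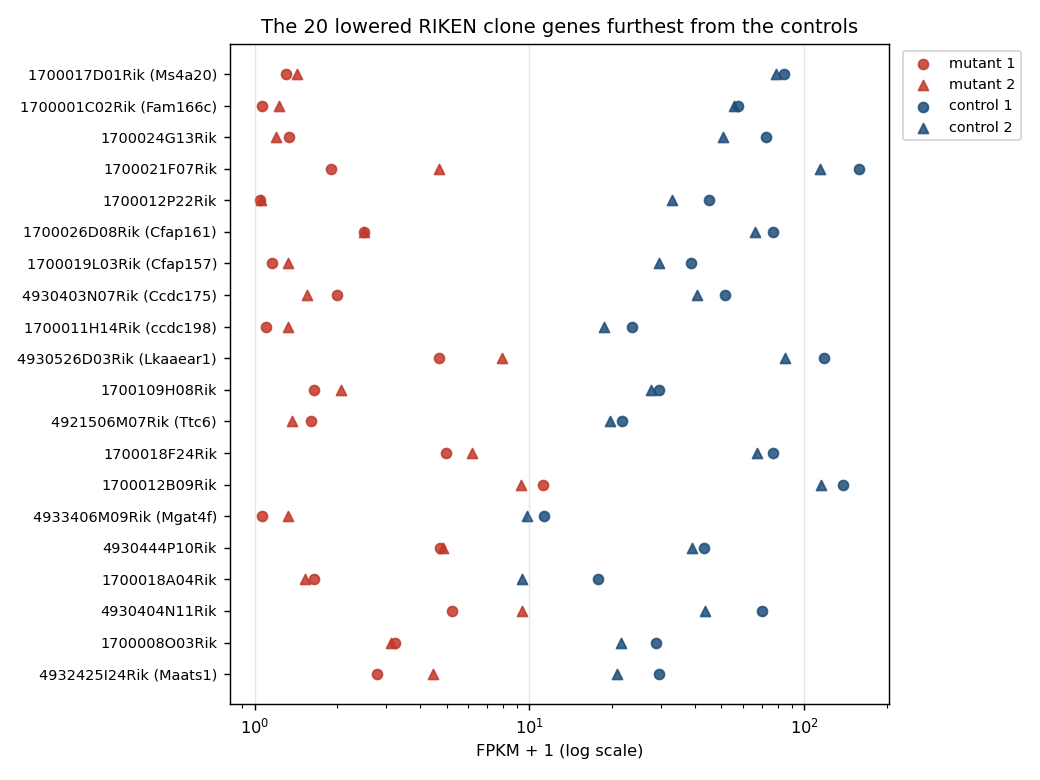
FPKM + 1 on a log axis in each of the 4 samples for the 20 lowered RIKEN clone genes with the lowest log2 differences, with current symbols in parentheses. Red marks are the mutants, blue marks the controls, and circles and triangles are replicates 1 and 2. In every gene shown both red marks lie to the left of both blue marks, as the rule requires, and the gap is widest for Ms4a20.

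Members renamed for the axoneme or for cilia had log2 differences from -4.84 to -1.02 among those given here. Cfap161 (1700026D08Rik), a protein inside the microtubule doublets, was at 1.49 FPKM in both mutants and at 75.9 and 65.2 FPKM in the controls, a log2 difference of -4.84. Cfap157 (1700019L03Rik), needed for a normal axoneme of the sperm flagellum, was at 0.158 and 0.317 FPKM in the mutants and at 37.8 and 28.5 FPKM in the controls, a difference of -4.78. Both genes were under 3% of their control level in the mutants.

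Maats1 (4932425I24Rik, also called CFAP91), which lies at the base of radial spokes, was at 1.79 and 3.44 FPKM in the mutants and 28.7 and 19.9 FPKM in the controls (-2.82). Cfap46 (E030019B06Rik), a protein of the central apparatus, had 3.92 and 3.55 FPKM against 23.1 and 23.0 FPKM (-2.35). These genes kept 10.8% and 16.2% of the control mean. Pifo (1700027A23Rik), known for its part in disassembly of the primary cilium, was at 16 and 17.3 FPKM in the mutants and 89.5 and 78.7 FPKM in the controls (-2.27), and was among the 10 members with the highest control levels.

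Among the genes given here, the smallest differences in this group were those of Cfap126, Cep128, Dnaaf6 and Cfap300. Some genes of the group were named after their values were seen, so no order by function can be read from them. Cfap126 (1700009P17Rik), a microtubule-associated protein of basal bodies, had 16 and 39.7 FPKM in the mutants and 106 and 83.6 FPKM in the controls (-1.85). Cep128 (4930534B04Rik), a protein of the subdistal appendages of the mother centriole, had 18.9 and 22.1 FPKM against 50.5 and 50.2 FPKM (-1.26). Dnaaf6 (4930521A18Rik) and Cfap300 (9230110C19Rik), which serve the assembly of dynein arms in the cytoplasm, were at 2.90 and 2.43 against 7.91 and 7.24 FPKM (-1.23) and at 15.9 and 14.4 against 32.3 and 30.9 FPKM (-1.02). In these last 3 genes the mutants were close to each other and retained 35.2% to 47.8% of the control mean. Of all the renamed genes in this group, Dnaaf6 was the one with an X-box in the promoter window.

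The X-box gene 4933421I07Rik, whose promoter resembles that of 1700018F24Rik, was at 0.793 and 1.79 FPKM in the mutants and 8.37 and 6.62 FPKM in the controls (-1.92), against 3.99 and 5.17 FPKM and 75.8 and 66.4 FPKM for 1700018F24Rik. Fem1al (4931440F15Rik), of the Fem1 family, was at 1.72 and 1.05 FPKM against 11.5 and 7.51 FPKM (-2.13), and 4933405L10Rik at 8.98 and 9.94 FPKM against 27.3 and 25.8 FPKM (-1.40). In these 3 genes neither mutant reached 0.5 of either control. 1700001L19Rik and 4930505A04Rik had 6.05 and 13.2 FPKM against 38.5 and 30.7 FPKM (-1.82) and 15.4 and 31.3 FPKM against 54.3 and 43.0 FPKM (-1.10), each with mutant 2 above mutant 1. The long non-coding RNAs 1700036G14Rik and 1500009C09Rik were under 0.25 FPKM in both mutants and at 1.63 to 4.76 FPKM in the controls.

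Several members carry names for coiled coils or for repeat domains. Ccdc175 (4930403N07Rik) was at 0.998 and 0.545 FPKM in the mutants and 50.3 and 39.9 FPKM in the controls (-4.70), and its X-box ended 1 base before the transcription start. The gene listed as ccdc198 (1700011H14Rik) was at 0.103 and 0.322 FPKM against 22.7 and 17.7 FPKM (-4.12). Ccdc180 (E230008N13Rik) was at 2.64 and 2.20 FPKM against 18.4 and 16 FPKM (-2.41). Ttc6 (4921506M07Rik), with tetratricopeptide repeats, stood at 0.597 and 0.365 FPKM in the mutants and 20.7 and 18.6 FPKM in the controls (-3.80).

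Some members are named for expression in testis or sperm. Tex44 (1700019O17Rik) had 0.590 and 2.99 FPKM in the mutants and 13.2 and 8.90 FPKM in the controls (-2.24), Tex55 (4930435E12Rik) had 0.796 and 5.73 against 13.9 and 10.1 FPKM (-1.88), and Tex52 (4933413G19Rik) had 0.410 and 1.05 against 3.09 and 2.62 FPKM (-1.18). In each of the 3 genes mutant 2 was at least 2.56 times as high as mutant 1. Spata45 (1700022P22Rik) was at 65.7 and 124 FPKM in the mutants and 207 and 181 FPKM in the controls (-1.09). Adam20 (4930529F22Rik), of the ADAM family of membrane-bound metalloproteases, had 0.910 and 1.88 FPKM against 16.7 and 8.62 FPKM (-2.48), with unlike controls.

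The 10 most abundant members had both large and small differences. Clec2m (4922502D21Rik), of the C-type lectin family, was the highest of all in the controls at 415 and 354 FPKM and was at 198 and 173 FPKM in the mutants (-1.04). 1700028P14Rik was at 23.1 and 35.1 FPKM in the mutants and 153 and 125 FPKM in the controls (-2.24). Ppp1r32 (4930579J09Rik), named as a regulatory subunit of protein phosphatase 1, was at 9.69 and 23.9 FPKM against 126 and 102 FPKM (-2.81). Lkaaear1 (4930526D03Rik), with an X-box that begins 19 bases upstream, was at 3.67 and 6.94 FPKM in the mutants and 117 and 84.1 FPKM in the controls (-4.04), so only this gene and 1700021F07Rik combined a mean control level of at least 100 FPKM with a log2 difference of -4 or below.

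Enzymes of sugar transfer and a pair of X-linked genes were at the lower end of expression. Mgat4f (4933406M09Rik), a member of the N-acetylglucosaminyltransferase family, was at 0.0635 and 0.322 FPKM in the mutants and 10.3 and 8.79 FPKM in the controls (-3.15). Its neighbour in the family Mgat4e (4931440L10Rik), which lies on chromosome 1 as well, was at 1.56 and 3.59 against 7.62 and 6.83 FPKM (-1.26). Samt3 (1700072E05Rik) and Samt4 (4930542N07Rik), spermatogenesis-associated transmembrane genes on the X chromosome, had control levels of 2.19 to 3.78 FPKM and mutant levels of 0.0435 to 0.505 FPKM. Such families have similar copies, and how the authors' counting shared reads among copies is not given, so these values are less certain.

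Non-coding members were fewer and expressed at lower levels. By RefSeq biotype 75 of the 100 genes were protein-coding, 21 were long non-coding RNAs and 4 were transcribed pseudogenes, which is 8.95%, 7.05% and 13.3% of the tested Rik symbols of each kind. The median of the mean control level was 31.6 FPKM for the protein-coding members and 4.06 FPKM for the long non-coding RNAs, and their median log2 differences were -1.99 and -1.76. The non-coding member furthest from the controls was 1700018A04Rik, at 0.646 and 0.530 FPKM in the mutants and 16.8 and 8.36 FPKM in the controls (-3.02). A quite different level was seen for 1700041C23Rik, the most abundant long non-coding RNA among the members, at 20.3 and 23.9 FPKM in the mutants and 75.8 and 56.3 FPKM in the controls (-1.53).

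All 4 genes listed at 0 in both mutants were long non-coding RNAs, namely 4933429O19Rik, 1700060C20Rik, 1700034K08Rik and 4930429F11Rik. Their control values lay between 1.04 and 3.69 FPKM, no fold is given for them, and without them the median log2 difference of the members was -1.87. 1700034K08Rik had an X-box that began 20 bases upstream of its start. The pseudogenes, 1700073E17Rik, 1700049L16Rik, Znf41-ps (1700029I01Rik) and Phf8-ps (4921501E09Rik), had a median of -1.30, and reads shared with their parent genes make those values uncertain.

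The 2 mutants were not equally far from the controls. Taken alone, mutant 1 had a median log2 difference of -2.09 from the control mean over the 100 genes and mutant 2 one of -1.58, and 96 and 76 of the genes lay at least 1 below the controls. Mutant 2 was the higher mutant in 65 of the 100 genes, whereas it was higher in 31.9% of all tested genes. In 21 members mutant 2 exceeded mutant 1 by at least 1 on the log2 scale, and in 0 members mutant 1 exceeded mutant 2 by as much, while in 63 members the mutants were within 0.5 of each other. The controls also differed, with control 2 above control 1 in 7 of the 100 genes compared with 59% of all tested genes. Control 1 was thus the higher control for most members. These leanings were not particular to the members. The 1079 other tested Rik symbols summed to 28969 and 35298 FPKM in mutants 1 and 2 and to 35164 and 30150 FPKM in controls 1 and 2. The median of mutant 2 minus mutant 1 on the log2 scale was 0.17 over the members, 0.00 over the tested Rik symbols and -0.12 over all tested genes.

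The members with the most unlike mutants had intermediate levels in mutant 2. 1110017D15Rik, with an X-box that begins 18 bases upstream of its start, was at 7.85 FPKM in mutant 1 and 43.3 FPKM in mutant 2, with 93.1 and 74.0 FPKM in the controls. 1700001O22Rik was at 6.42 and 27.2 FPKM against 64.8 and 47.1 FPKM, and 1700012A03Rik at 2.88 and 16.3 FPKM against 26.2 and 23.0 FPKM. Nudt16l2 (1700080E11Rik) was at 1.29 and 10.6 FPKM against 17.3 and 13.8 FPKM, and Spertl (4921530L21Rik) at 2.61 and 13.4 FPKM against 21.1 and 17.1 FPKM. In these 5 genes mutant 2 lay closer to the lower control than to mutant 1 on the log2 scale.

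Marker genes listed for late spermatids were likewise higher in mutant 2 than in mutant 1. The study found elongating spermatids absent from mutant testes at a later age. By RT-PCR it saw no difference in Tnp and Prm genes, and it detected TP1 protein in detached, degenerating spermatids of mutants. The marker levels therefore do not show that elongating cells were present in mutant 2. The 9 elongating spermatid markers, all present in the files, summed to 1337 FPKM in mutant 1 and 6587 FPKM in mutant 2, with 7937 and 5428 FPKM in the controls. Prm1, Prm2, Tnp1 and Tnp2 made up most of this sum in mutant 2 and in the controls. Prm1, a protamine that packs sperm DNA, was at 136 and 1195 FPKM in the mutants and 1792 and 1266 FPKM in the controls. Other markers of the list went the other way in mutant 2, above both controls. Smcp was at 276 and 705 FPKM in the mutants against 466 and 369 FPKM, and Oaz3 at 221 and 554 FPKM against 333 and 287 FPKM. None of these 9 markers was called (limma, adjusted p from 0.576 to 1), 0 had an unadjusted p under 0.05, and none was at 0 in any sample. The 9 round spermatid markers summed to 1586 and 2248 FPKM in the mutants and 2187 and 1703 FPKM in the controls, with 0 of them called by limma and 0 at an unadjusted p under 0.05. Their part in the difference between the mutants was not tested. The median log2 difference of the elongating spermatid markers from the control mean was -1.39 in mutant 1 and 0.12 in mutant 2. By the same rule without mutant 1, 83 Rik symbols were chosen, of which 79 were among the 100, an overlap that the choice of the members largely fixes.

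**Figure D4:**
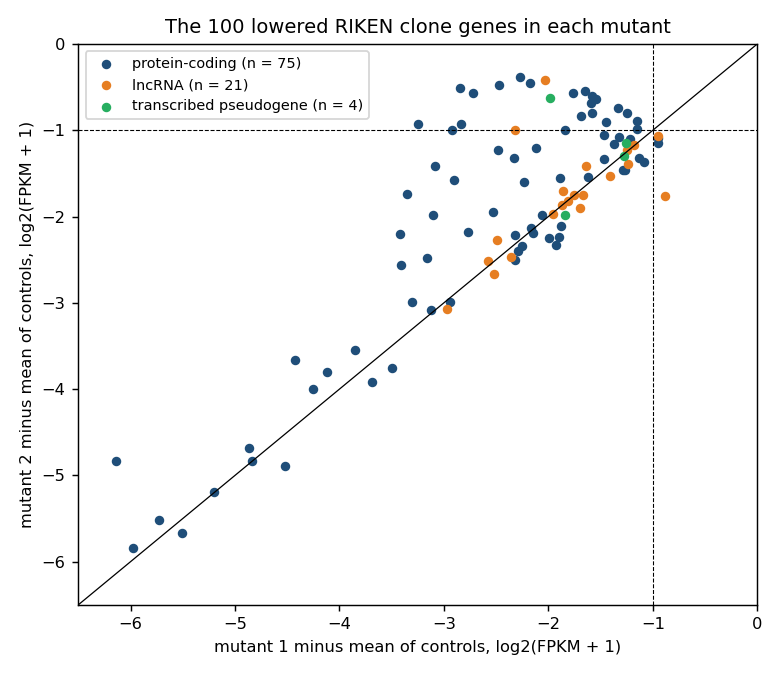
Log2(FPKM + 1) of mutant 1 (horizontal) and of mutant 2 (vertical) minus the mean of the controls for the 100 lowered RIKEN clone genes, coloured by biotype. The solid line marks equal values and the dashed lines a difference of -1. The points above the solid line, 65 of 100, are genes with more RNA in mutant 2.

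In the 10 genes at -4 or below mutant 2 minus mutant 1 ran from -0.37 to 1.31 on the log2 scale, and the largest of these belonged to 1700021F07Rik. Near 0 FPKM this scale compresses ratios: mutant 2 was at 3.52 times the FPKM of mutant 1 for Fam166c and at 3.12 times for ccdc198 (1700011H14Rik). The 21 members with unlike mutants had a median log2 difference of -1.82 and the 63 with like mutants one of -1.96.

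Other facts of the libraries bear on all of these values. Summed FPKM ran from 360029 to 390774 per sample, and 12557 to 12942 symbols reached 1 FPKM in a sample. Rfx2 itself was at 36.7 and 39.8 FPKM in the mutants and 123 and 89.4 FPKM in the controls (log2 difference -1.43 with an SE of 0.19, limma adjusted p = 0.00617), and the gene value includes exons outside the deleted ones. Of 7 tested RFX family genes none besides Rfx2 was called, and Rfx3 came closest, at 0.946 and 1.04 against 2.30 and 2.79 FPKM (adjusted p = 0.0982). The sample label was checked against markers: summed levels of Sertoli cell markers were 713 to 1081 FPKM, of spermatocyte markers 584 to 696 FPKM and of spermatogonium markers 77.7 to 114 FPKM. Leydig cell markers summed to 135 to 418 FPKM, peritubular cell markers to 61.3 to 89.3 FPKM and macrophage markers to 19.8 to 36.6 FPKM. Multiciliated cell markers summed to 25.7 to 52.6 FPKM. Most of that last sum was Foxj1, at 19.6 and 27.3 FPKM in the mutants and 46.2 and 25.4 FPKM in the controls. Mcidas and Gmnc had no value and Pax8 was under 1 FPKM in every sample, so the sum does not show that multiciliated cells were present. Limma called 0 of the 44 tested genes of these lists, of which 1 was lower at an unadjusted p under 0.05.

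Rik symbols as a class, which are defined by name only, were then compared with the other tested genes in the fit over all symbols. Limma called 81 of 1179 Rik symbols lower (6.87%) and 3 higher (0.254%), and called 246 of 11806 other symbols lower (2.08%) and 37 higher (0.313%). Over all 12985 symbols 327 were lower (2.52%) and 40 higher (0.308%). Among the 81 were 77 of the 100 genes, which the rule had already chosen on the same values. The other 4 were 1700016K19Rik (log2 difference -0.93), 2810032G03Rik (-0.99), Hoatz (4833427G06Rik, -0.86), a gene known for motile cilia, and Ccdc173 (4930578N16Rik, -0.84), with adjusted p-values from 0.0252 to 0.0398.

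The 2-fold limit of the rule did not fall in a gap of the values. Just inside it were Cfap300, 1700034J05Rik and 1700011L22Rik, with mutant to control ratios of FPKM + 1 of 0.4943, 0.4983 and 0.4988. Just outside it were A730037C10Rik (Ccdc169), 2810032G03Rik and 4430402I18Rik, with ratios of 0.5022, 0.5043 and 0.5044. Of those inside, 1700011L22Rik had 25.2 and 55.3 FPKM in the mutants and 90.1 and 73.4 FPKM in the controls, and 1700034J05Rik had 30.4 and 41.8 against 76.3 and 70.7 FPKM. Both of them carried an X-box.

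Few Rik symbols were higher in the mutants. Only 4 of 1179 (0.339%) were at least 2-fold higher on FPKM + 1 with both mutants above both controls, a share of 0.347% over all tested symbols. 4930570G19Rik was at 66.4 and 80.8 FPKM in the mutants and 25.0 and 17.8 FPKM in the controls (log2 difference 1.75, limma adjusted p = 0.00304), and Fam221b (4930412F15Rik) at 161 and 218 FPKM against 95.7 and 77.8 FPKM (1.11, adjusted p = 0.0313). Exoc3l4 (1200009I06Rik) was at 2.46 and 2.20 FPKM against 0.587 and 0.638 FPKM (1.05, adjusted p = 0.028). A530064D06Rik was at 12.9 and 8.70 FPKM in the mutants and 0.138 and 3.21 FPKM in the controls, and did not pass (adjusted p = 0.0705).

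RIKEN clone names begin with the plate of the cDNA library from which the clone was picked. The plates of 1700017D01Rik, Ccdc175 (4930403N07Rik), Mgat4e (4931440L10Rik), Maats1 (4932425I24Rik) and Erich2 (4933404M02Rik) came from adult testis. Together they gave 79 of the 100 genes, which is 13.9% of their 570 tested symbols, while all other plates gave 21 of 609 (3.45%). These other plates include that of Ttc6 (4921506M07Rik), with 7 of 26 (26.9%), and that of Clec2m (4922502D21Rik), with 1 of 5, which may also be of testis origin but were not assigned to a tissue here, so the comparison is not one of testis plates with all others. In the fit over all symbols 11.1% and 2.96% of these symbols were called lower. The plate of 1700017D01Rik alone had 41 members among 278 tested symbols (14.7%), that of Ccdc175 21 of 180 (11.7%) and that of Erich2 11 of 76 (14.5%). Of the 17 plates with at least 15 tested symbols, 9 had no member.

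**Figure D5:**
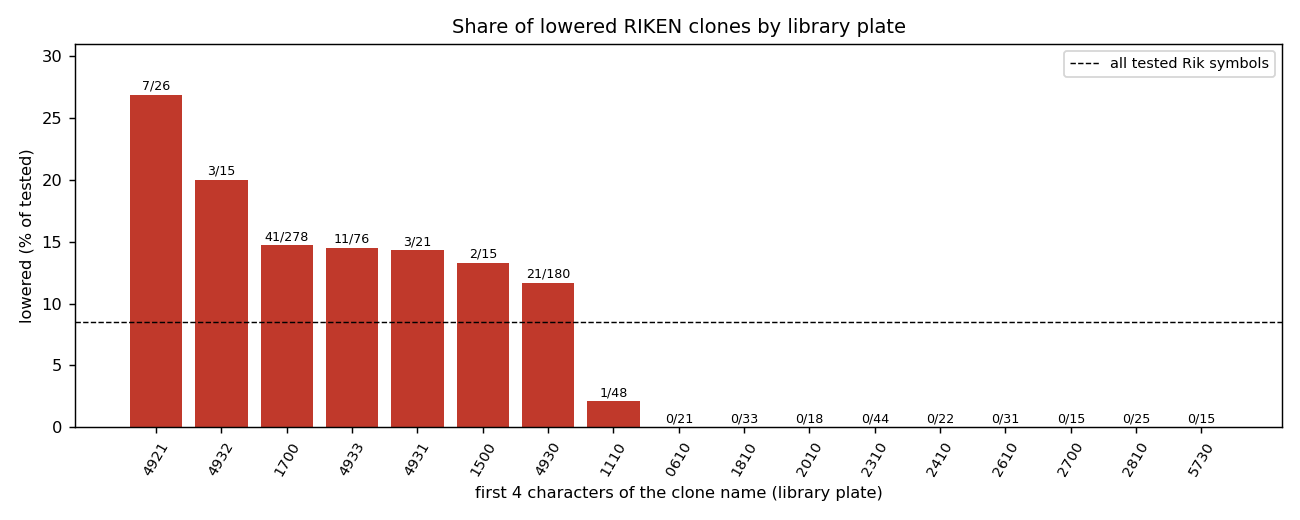
Percent of the tested Rik symbols with a given clone-name prefix that were among the 100 lowered genes. The 17 prefixes with at least 15 tested symbols are shown, ordered by that share. The axis and title call the prefix a library plate. The numbers above the bars give lowered and tested symbols, and the dashed line is the 8.48% of all tested Rik symbols. The prefix of Ttc6 has the tallest bar and 9 prefixes have none.

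The members were spread over the genome. Of the 86 with a position in the mm9 annotation, 13 lay on chromosome 2, 10 on chromosome 1 and 7 on chromosome 7, and 19 chromosomes held at least 1. A total of 21 members overlapped another tested gene or started within 1000 bases of one in head-to-head orientation. Of the 22 neighbouring entries 2 were called lower, against 2.52% of all tested symbols. These 2 are themselves members, which the rule had already chosen as lower on the same values. Both entries are the same pair seen from either side: Erich2 (4933404M02Rik, plus strand) was at 7.40 and 17.3 FPKM in the mutants and 85.1 and 59.8 FPKM in the controls, and the antisense RNA Gad1os (1500002O10Rik, minus strand), which overlaps it on chromosome 2, was at 0.723 and 0.621 against 5.11 and 3.88 FPKM. Whether the counting used strand is not given in the sources used here, so reads from overlapping genes cannot be told apart.

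Limma called 0 of the other 20 neighbours, of which 3 were lower and 1 higher at an unadjusted p under 0.05. Dnaaf6 starts 178 bases from 4931428L18Rik on the opposite strand, which was at 6.24 and 7.41 FPKM in the mutants and 13.3 and 10.5 FPKM in the controls (log2 difference -0.72, limma adjusted p = 0.208). 6430550D23Rik starts 68 bases from Ergic3, which was at 111 and 106 FPKM against 118 and 112 FPKM, whereas 6430550D23Rik was at 0.695 and 0.837 against 3.36 and 2.57 FPKM. Of the 5 head-to-head neighbours, 0 were called by limma and 1 was lower at an unadjusted p under 0.05.

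Other genes of the axoneme were listed under the names in the files. Of 70 listed genes 63 were in the files and 59 were tested, and 25 (42.4%) were called lower by limma and 0 higher (30 and 4 at an unadjusted p under 0.05), with a median log2 difference of -0.68. Over all tested symbols 2.52% were called lower and 0.308% higher. The lowest were Rsph9 of the radial spoke head (-5.41, adjusted p = 2.14e-05), Tekt4 of the tektin filaments (-5.38, adjusted p = 5.08e-05), Ccdc11, now Cfap53 (-5.20), and Ccdc164, now Drc1 of the nexin-dynein regulatory complex (-5.17, both with an adjusted p of 2.61e-05). Rsph9 was at 0.940 and 1.05 FPKM in the mutants and 96.8 and 72.9 FPKM in the controls, a pattern much like that of Ms4a20 or Cfap161. The 4 highest values in the list, none of them called, were 0.71 for the dynein intermediate chain Dnaic1 (72.1 and 85 against 51.4 and 44.1 FPKM), 0.60 for Ccdc151, 0.47 for Mns1 and 0.43 for Tekt3. The list was put together with earlier results of these data known and is not independent evidence of a direction.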

How the data were processed

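Total RNA from whole testes of 24-day-old mice was sequenced by the authors on an Illumina HiSeq instrument, with 2 mutant and 2 control samples. The reads were aligned to mm9 with TopHat2 2.0.6, and the deposited FPKM values with their confidence bounds were made by the authors with the Cufflinks and Cuffdiff programs, normalized for gene length and sequencing depth. Read counts per gene were not used here, so the depth behind each value is known only through the confidence bounds, and no counting interval is given. Groups and replicate numbers came from the labels. The study's methods call the samples of a group biological replicates.

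FPKM values were summed by symbol and used without further scaling. Symbols with at least 1 FPKM in at least 2 samples were fitted with limma 3.58.1 in R 4.3.3 (on log2(FPKM + 1), eBayes with a trend, two-sided, Benjamini-Hochberg adjustment over all 12985 symbols, threshold 0.05). A log2 difference is the mean log2(FPKM + 1) of the mutants minus that of the controls, and a pseudocount of 1 understates the change of low genes. The fit was tested on simulated data. With 2 samples per group an exact permutation test cannot reach the threshold and was not run. Current symbols and biotypes came from RefSeq, and mm9 positions from the GENCODE annotation of the same build. The X-box was searched on both strands of the RefSeq promoters (GRCm38.p6) and of mm9.

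The members and lists were chosen with earlier results of these data known. Named members were the 15 furthest from the controls, the 10 highest in the controls, the 3 on either side of the limit, the 19 with an X-box, 14 with axonemal, coiled-coil or testis symbols, and the 5 with the most unlike mutants. Others were named after their values were seen. Alternatives were another pseudocount, 2 other filters, median-ratio and quantile scaling, a fit without a trend, a replicate block, the highest entry per symbol, and each sample left out.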

Additional observations from a re-analysis of the deposited data

How the results depend on the processing

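Of 308 values of the 44 named members under the alternatives, 284 moved by less than the spread between replicates, and their direction was fixed by the choice of the members. Leaving out 1 sample cannot move a value by more than this spread, and no member had several entries to choose from. The count of 284 is therefore no measure of stability. With a pseudocount of 0.1, 22 of the 44 values moved by at least the spread, and with median-ratio scaling 0 did. The median log2 difference of all 100 members, -1.84, became -2.51 with a pseudocount of 0.1 and ran from -2.09 to -1.58 with 1 sample left out. The rule chose 83 to 202 Rik symbols with 1 sample left out. The 202 came without mutant 2 and held 96 of the 100, the 83 came without mutant 1 and held 79 of the 100. An X-box was found in 47.7% of member promoters with 1 mismatch allowed, in place of 22.1%.

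Counts of limma calls moved more. With no filter, a filter of 5 FPKM and median-ratio scaling, 199, 202 and 206 symbols were called lower in place of 327, and 17, 17 and 16 higher in place of 40. Among Rik symbols 50, 48 and 53 were called lower in place of 81, and 1 higher in each case in place of 3. With 1 sample left out, where a lone sample is assumed to vary like the other group, 167 to 948 symbols were called lower and 13 to 162 higher, and 48 to 256 Rik symbols lower and 1 to 21 higher. The highest counts of lower calls came without mutant 2 and those of higher calls without mutant 1, and the lowest counts of lower calls came without control 1. Without control 2, 213 symbols were called lower and 13 higher. The axoneme count of 25 stayed between 19 and 33 in every alternative run.

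Same-numbered samples did not deviate together (r = -0.154 across 12985 genes, which are not independent replicates), and the main fit used no pairing. With 2 samples per group this value cannot exclude that same-numbered samples were handled together. With a replicate block 525 symbols were called lower and 70 higher, 137 and 5 of them Rik symbols. With the crossed pairing, added after seeing the data, the counts were 266, 28, 70 and 2. Fits with a block or without a sample left 1 residual degree of freedom. The cause of these shifts was not tested. With 2 samples per group, no sample could be tested as an outlier.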
